A study of Saccharomyces cerevisiae with 16 samples.

Results

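The 40 genes described here make ergosterol, regulate sterol and unsaturated fatty acid genes, import sterol, or are known as genes that budding yeast expresses when oxygen is low. They were chosen by name: 24 enzymes and partners of ergosterol synthesis, 4 regulators, the sterol importer gene AUS1, 8 DAN and TIR cell wall mannoprotein genes, and 3 further low-oxygen genes. Each was matched to the array through its systematic ORF name. All 40 were found among the 6225 genes of the array, and all 40 were among the 6046 genes tested, although the signal of DAN1 lay under the signal floor throughout. Expression was followed in a haploid strain of the S288C background in which the native promoter of ROF1 was displaced by the Z3 promoter, linked to URA3. The artificial activator Z3EV, expressed from the ACT1 promoter, drives that promoter when β-estradiol is present. ROF1 encodes a DNA-binding protein of the WOPR family. The strain also carries a repaired, functional HAP1 and the alleles can1Δ::STE2pr-Sphis5, his3Δ1, lyp1Δ and ura3Δ0, which were the same at all times. A pair of phosphate-limited chemostat cultures, A and B, were sampled before and at 5, 10, 15, 20, 30, 45 and 90 min after 1 µM β-estradiol, giving 16 arrays, 1 per culture and time. Both were cultures of a single strain, no culture without β-estradiol was followed over time, and p-values measure the spread between these 2 cultures. Every array compared the induced strain, labelled with Cy5 (red), with RNA of the reference strain DBY12001, labelled with Cy3 (green), whose genotype is not given in the sources used here.

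Ergosterol is the main sterol of yeast membranes. Several of its enzymes need oxygen, heme or both, and synthesis therefore depends on air. UPC2 and ECM22 encode zinc cluster activators of ergosterol genes, and UPC2 also activates the DAN and TIR genes and AUS1 when oxygen is scarce. In air, many low-oxygen genes are held down by the repressors Rox1 and Mot3, which recruit the corepressor Tup1-Cyc8. The question asked of these genes was whether they moved while the transcript of MOT3 fell.

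ROF1 itself rose by 3.43 on the log2 scale at 5 min and stood 4.01 above its 0 min value at 90 min (limma, adjusted p = 3.3e-05 and 2.9e-06). Its red signal at 0 min was 11.5 and 17.0 in cultures A and B, under the floor of 50 that was put under both colours, so the size of that rise depends on the floor. The median red signal of an array lay between 929 and 1416, with the lowest at 10 min in culture B, and 90.5% to 97.4% of spots were well above background. Each culture had a slide of its own. On both slides the arrays of 0 to 15 min lay on one side and those of 20 to 90 min on the other, by their position numbers, so a step between 15 and 20 min cannot be told apart from the side of the slide. The changes of all genes correlated between the cultures with r between 0.698 at 15 min and 0.943 at 90 min, which is a description across genes that share arrays. Transcript levels of general stress genes and of ribosome biogenesis genes also moved early: their medians at 10 min were 0.71 and -0.46, over 12 genes each.

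At 90 min, 8 of the 40 genes were higher and 11 were lower than at 0 min at an adjusted p under 0.05. Of all 6046 genes, 20.7% were higher and 20% were lower by the same rule, so the share of the 40 that was called lay close to the background. The median change of the 40 was 0.02, against 0.00 over all genes. At 2-fold or more, 1 of the 40 was higher (TIR3) and 3 were lower (NCP1, ERG28 and HEM13), where the background was 0.38% higher and 0.992% lower. In the mean of the 7 later times, 4 were higher and 9 were lower (background 12% and 12.4%), none by 2-fold (background 0.0331% and 0.116%). The F test over all times called 22 of the 40, against 50.6% of all genes. Over the single times the number called grew: 0 higher and 1 lower at 5 min (background 10.1% and 9.54%), 0 and 2 at 10 min (11.6% and 12.9%), 1 and 3 at 15 min (9.01% and 9.84%), 3 and 4 at 20 min (7.96% and 7.56%), 3 and 6 at 30 min (5.52% and 5.94%), and 3 and 7 at 45 min (8.78% and 7.96%). In all, 20 of the 40 genes were called at no later time, and 28 changed by less than 0.25 on the log2 scale at every time. Both counts include DAN1. The same 2 counts were not made over all genes, so they describe the 40 genes without a background.

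**Figure D1:**
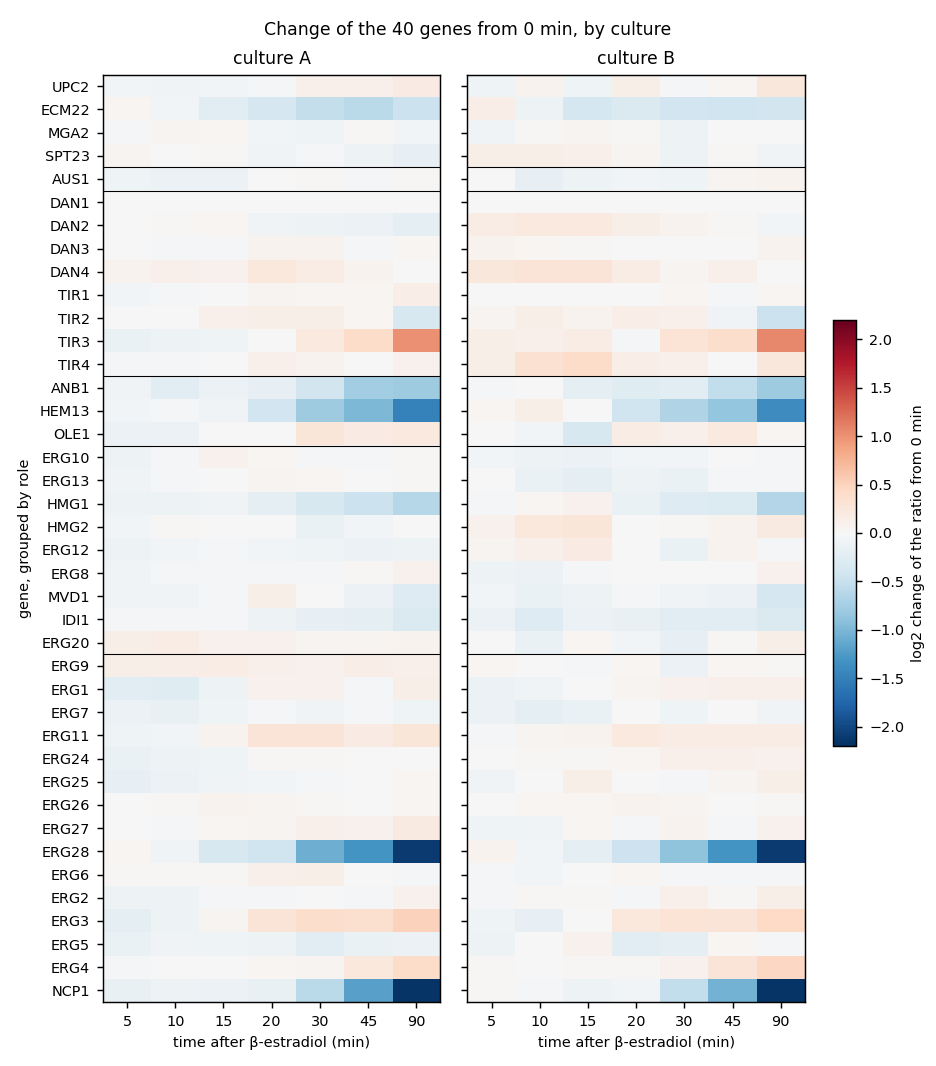
Log2 change of the red over green ratio from 0 min (colour scale) for the 40 genes (rows, grouped by role) at the 7 later times (columns, min) in culture A (left) and culture B (right). NCP1, ERG28 and HEM13 darken towards blue from 20 to 30 min on in both cultures, TIR3 turns red at 90 min, and most rows stay pale.

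NCP1 and ERG28 changed most. NCP1 encodes the NADPH-cytochrome P450 reductase that hands electrons to the P450 enzymes of the pathway, Erg11 and Erg5. Its red signal was 4254 and 2479 at 90 min in cultures A and B, against 19444 and 17990 at 0 min. The ratio to the reference changed by -0.16, -0.11, -0.13, -0.16, -0.59, -1.19 and -2.16 on the log2 scale at the 7 later times in culture A, and by 0.03, -0.03, -0.11, -0.07, -0.55, -1.05 and -2.15 in culture B. It stayed near 0 up to 20 min in both cultures and was low from 30 min, with no overlap between 90 and 0 min. It fell by 2.16 at 90 min (SE 0.045, adjusted p = 2.7e-08), or 4.46-fold, and NCP1 was called at 30, 45 and 90 min.

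ERG28 encodes a membrane scaffold that holds the C-4 demethylation enzymes Erg25, Erg26 and Erg27 together. Its red signal was 1248 and 1325 at 90 min in cultures A and B, against 5194 and 5260 at 0 min, while the green reference signal was 5390 and 5912 at 90 min and 5256 and 5507 at 0 min. The change over the 7 later times was 0.04, -0.08, -0.35, -0.44, -1.07, -1.31 and -2.10 in culture A, and 0.07, -0.06, -0.19, -0.45, -0.89, -1.32 and -2.10 in culture B. Both cultures fell step by step and did not level off by 90 min. At 90 min ERG28 fell by 2.10 (SE 0.051, adjusted p = 5.0e-08), or 4.29-fold. ERG28 was called at every time from 15 min on (change of -0.27 at 15 min, adjusted p = 0.0088), before NCP1, a difference in timing that was not tested. Of the genes of the enzymes it holds, ERG25 changed by 0.09, ERG26 by 0.03 and ERG27 by 0.14 at 90 min, and of these 3 ERG27 alone was called, as higher (SE 0.033, adjusted p = 0.0094).

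**Figure D2:**
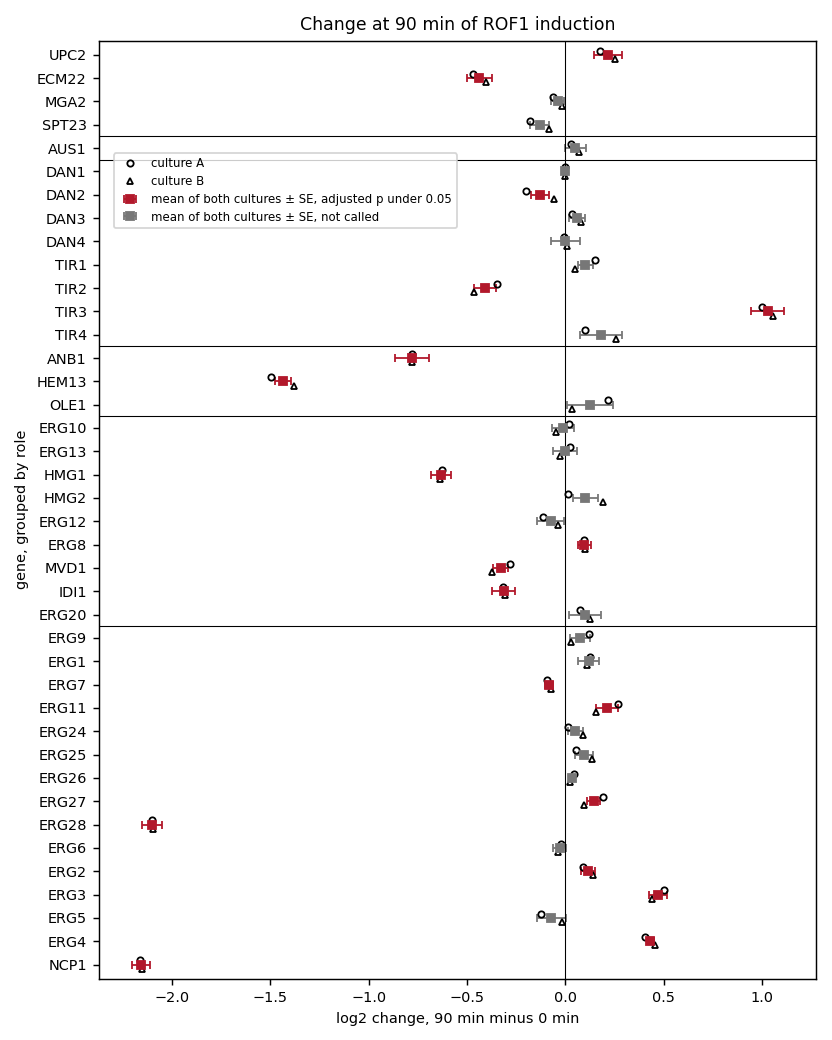
Log2 change at 90 min minus 0 min (x axis) of the 40 genes (rows, grouped by role): squares are the mean of both cultures with its SE from the fit, red where the adjusted p was under 0.05 and grey elsewhere, and open symbols are cultures A and B. NCP1 at -2.16, ERG28 at -2.10 and HEM13 at -1.44 lie far below the rest, and TIR3 at 1.03 is the furthest above 0.

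Among the 3 further low-oxygen genes, 2 were lower at 90 min (background 20%). HEM13 encodes coproporphyrinogen oxidase, an oxygen-using step of heme synthesis, and is a classic target of Rox1. It had a red signal of 703 and 988 at 90 min in cultures A and B, against 2315 and 2151 at 0 min. Its change was -0.05, -0.03, -0.08, -0.43, -0.78, -0.99 and -1.49 in culture A at the 7 later times, and 0.03, 0.12, 0.00, -0.44, -0.66, -0.85 and -1.38 in culture B. Both cultures were flat to 15 min and low from 20 min. It fell by 1.44 at 90 min (SE 0.041, adjusted p = 1.2e-07), or 2.71-fold. The first called time, 20 min (change of -0.43, adjusted p = 5.6e-04), is also the first on the other side of the slide, and within that side HEM13 fell by a further 1.00 between 20 and 90 min (SE 0.041, adjusted p = 1.3e-06, a comparison added after the data had been seen).

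ANB1 encodes the form of the translation factor eIF5A that is made when oxygen is low, and HYP2 encodes the form made in air. ANB1 was dim, with a red signal of 62.0 and 64.2 at 90 min in cultures A and B, against 102 in both at 0 min, just above the floor of 50. It changed by -0.78 in each culture at 90 min (SE 0.086, adjusted p = 2.3e-04) and was also called at 45 min (-0.65, adjusted p = 0.0018). With a floor of 200 it could not be followed. HYP2, a near-identical paralog, was very bright (median red signal 112578) and changed by 0.14 at 90 min (adjusted p = 0.10). How far the ANB1 probe also reads HYP2 was not tested. OLE1, the fatty acid desaturase gene, changed by 0.21 and 0.04 in cultures A and B at 90 min and was not called at any time.

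The early part of the pathway runs from acetyl-CoA to farnesyl diphosphate, and 9 of its genes were measured. At 90 min, 1 was higher, 3 were lower (background 20.7% and 20%) and 5 were not called, with a median change of -0.01. HMG1, which encodes the main HMG-CoA reductase in air, had a red signal of 5357 and 5736 at 90 min in cultures A and B, against 8595 and 8131 at 0 min. Its change was -0.11, -0.12, -0.08, -0.22, -0.35, -0.48 and -0.63 in culture A, and -0.04, 0.05, 0.09, -0.15, -0.28, -0.31 and -0.64 in culture B. HMG1 was called lower at every time from 20 min, and fell by 0.63 at 90 min (SE 0.050, adjusted p = 3.8e-05). HMG2, the paralog made more when oxygen is low, changed by 0.01 and 0.19 in cultures A and B at 90 min and was called at no time. Whether the HMG1 and HMG2 changes differ was not tested.

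MVD1, the mevalonate diphosphate decarboxylase gene, and IDI1, the isopentenyl diphosphate isomerase gene, carry adjacent steps. MVD1 changed by -0.28 and -0.38 in cultures A and B at 90 min (mean -0.33, SE 0.040, adjusted p = 3.6e-04) and was called at that single time. IDI1 changed by -0.32 and -0.31 (mean -0.31, SE 0.059, adjusted p = 0.0036) and was also called at 45 min. ERG8, the phosphomevalonate kinase gene, was 0.10 higher at 90 min (adjusted p = 0.040), a call that was lost in 4 of 10 other settings and without any 1 of 12 arrays. The thiolase gene ERG10, the HMG-CoA synthase gene ERG13, the mevalonate kinase gene ERG12 and the farnesyl diphosphate synthase gene ERG20 changed by -0.01, 0.00, -0.07 and 0.10, and none of these 4 was called at any time.

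The late part, from squalene to ergosterol, was measured by 15 genes, including NCP1 and ERG28. At 90 min, 5 were higher, 3 were lower (background 20.7% and 20%) and 7 were not called, with a median of 0.07. ERG3, which encodes the C-5 desaturase, changed by -0.20, -0.11, 0.05, 0.29, 0.39, 0.36 and 0.50 in culture A, and by -0.09, -0.17, -0.01, 0.23, 0.30, 0.28 and 0.44 in culture B. Both cultures were low at 5 and 10 min and above 0 from 20 min. The gene was called lower at 10 min (-0.14, adjusted p = 0.048) and higher from 20 min on, by 0.47 at 90 min (SE 0.044, adjusted p = 9.4e-05). ERG4, the last reductase of the pathway, changed by 0.41 and 0.45 in cultures A and B at 90 min (mean 0.43, SE 0.018, adjusted p = 9.2e-07), and was called from 30 min. ERG11, the lanosterol demethylase gene and target of azole drugs, changed by 0.26 and 0.16 (mean 0.21, SE 0.056, adjusted p = 0.018). In red alone ERG11 stood at -0.27, not called, and its call was lost without either 0 min array or the culture A array at 90 min. ERG2, the C-8 isomerase gene, was 0.11 higher (adjusted p = 0.036), a call that was lost in 5 of 10 other settings, the fit without the culture block among them, and without any 1 of 9 arrays.

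Each colour was also read by itself, as its log2 level relative to the 75th percentile of the array. For ERG3 the red level was 0.28 and 0.15 higher at 90 min than at 0 min in cultures A and B, while the green level of the reference, the same strain on every array, changed by -0.22 and -0.29. The green level of ERG3 on the 20 to 90 min arrays differed by -0.21 and -0.17 from that on the 0 to 15 min arrays. A green step this low in both cultures was found in 0.0992% of the 6046 genes. For ERG4 it was -0.13 and -0.12, a step that 0.347% of genes reached. The part of the green colour in the rise of both ratios was not tested. In red alone their changes at 90 min were 0.22 and 0.26 and were not called (adjusted p = 0.36 and 0.20). Between 20 and 90 min, on one side of the slide, ERG3 rose by 0.21 (SE 0.044, adjusted p = 0.0069) and ERG4 by 0.40 (SE 0.018, adjusted p = 2.2e-06), while ERG11 changed by -0.03 (adjusted p = 0.73).

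ERG11 had a further irregularity, which some other genes shared. In culture B both of its colours were low at 10, 15 and 90 min: the red signal was 30260, 17735, 16722 and 19119 at 0, 10, 15 and 90 min, and the green signal was 28765, 16148, 15051 and 16224. These arrays of 10, 15 and 90 min in culture B also had the most outlier spots, 34, 183 and 60, against 3 to 26 on the others. A link between the outlier spots and the low signals was not tested. The 10 min array was dim as a whole. The 15 and 90 min arrays were also low in both colours for NCP1, whose green signal in culture B was 23915, 16003 and 14660 at 0, 15 and 90 min. OLE1, MVD1 and ERG12 were among the genes low in both colours on the same arrays. For MVD1, called lower at 90 min alone, the red and green levels changed by -0.85 and -0.49 at 90 min in culture B. ERG28 kept its green level to within 0.12 of the 0 min value at 90 min in both cultures, and in red alone it stood at -1.98 in both.

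**Figure D3:**
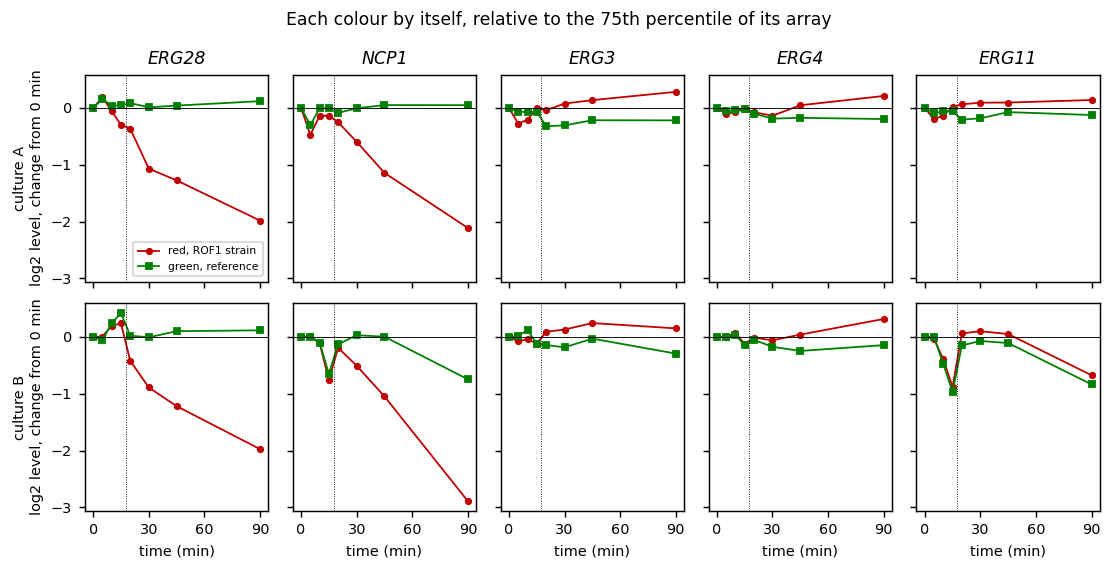
Log2 level of each colour relative to the 75th percentile of its array, as change from 0 min (y axis), over time (x axis, min) for 5 late pathway genes in culture A (top) and culture B (bottom): circles are red (ROF1 strain) and squares are green (reference strain). The dotted line separates the 0 to 15 min arrays from the 20 to 90 min arrays, which lay on different sides of the slide. Red falls away from green for ERG28 and NCP1, while for ERG3 and ERG4 the colours part by 0.50 or less and green is below 0 at 90 min.

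The other late genes moved little. ERG7, the lanosterol synthase gene, was called lower at 5, 10, 15, 30 and 90 min, with its lowest value at 10 min (-0.18, adjusted p = 7.2e-04). ERG26 was called higher at 15 and 20 min, by 0.06 and 0.07 (adjusted p = 0.024 and 0.015). ERG1, the squalene epoxidase gene, changed by -0.18 at 5 min and 0.12 at 90 min and was called at neither time (adjusted p = 0.055 and 0.12). The squalene synthase gene ERG9, the C-14 reductase gene ERG24, the C-24 methyltransferase gene ERG6 and the C-22 desaturase gene ERG5 changed by 0.07, 0.05, -0.03 and -0.07 at 90 min and were called at no time. The call of ERG7 at 90 min was lost in 5 of 10 other settings and without any 1 of 3 arrays.

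Of the 4 regulators, 1 was lower over most of the course. ECM22 had a red signal of 636 and 725 at 90 min in cultures A and B, against 949 and 927 at 0 min. Its change was 0.05, -0.07, -0.25, -0.36, -0.52, -0.59 and -0.47 in culture A and 0.15, -0.12, -0.38, -0.31, -0.42, -0.44 and -0.40 in culture B. It was called at every time from 15 min, first by -0.32 (adjusted p = 0.0097) and at 90 min by -0.44 (SE 0.062, adjusted p = 8.6e-04), and most of that fall had occurred by 30 min. Its paralog UPC2 changed by 0.18 and 0.25 at 90 min (mean 0.21, SE 0.072, adjusted p = 0.045) and lost its call without the culture block and when any of 10 arrays was left out, the 0 min arrays among them. MGA2 and SPT23 encode membrane-bound activators of OLE1. They changed by -0.04 and -0.13 at 90 min (adjusted p = 0.39 and 0.070) and were called at no single time, although the F test called both (adjusted p = 0.048 and 0.041).

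The DAN and TIR genes encode mannoproteins that replace the aerobic cell wall mannoproteins when oxygen is low. Of the 8, 1 was higher, 2 were lower (background 20.7% and 20%) and 5 were not called at 90 min. TIR3 had a red signal of 1752 and 2286 at 90 min in cultures A and B, against 943 and 862 at 0 min. It changed by -0.14, -0.11, -0.09, 0.00, 0.21, 0.40 and 1.00 in culture A, and by 0.12, 0.11, 0.17, -0.02, 0.29, 0.38 and 1.05 in culture B. The cultures lay on opposite sides of 0 up to 15 min and rose together from 30 min. TIR3 was called at 45 min (0.39, adjusted p = 0.016) and at 90 min (1.03, SE 0.083, adjusted p = 4.2e-05, or 2.04-fold).

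TIR2, a close relative of TIR3, was lower at 90 min alone: its change was -0.35 and -0.47 in cultures A and B (mean -0.41, SE 0.056, adjusted p = 7.4e-04), after values between -0.08 and 0.14 at all earlier times. TIR1 changed by 0.15 and 0.05, TIR4 by 0.10 and 0.26 and DAN4 by -0.01 and 0.01, and none of these 3 was called at any time. TIR4, TIR2 and AUS1 lie side by side on the chromosome in the R64 annotation, as do DAN1 and DAN4. Of the first 3, TIR2 was lower, while TIR4 and AUS1, which encodes an ABC transporter for sterol, were not called (change of AUS1 0.05, adjusted p = 0.52).

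DAN1 was not detectable. Its red signal lay between 3.92 and 17.1 on the 16 arrays and its green signal between 2.95 and 10.1, under the floor of 50 in both colours, so its ratio was 0 throughout by construction. It entered the test because its red signal was well above background on 2 arrays. DAN2 and DAN3, named PAU23 and PAU24 in RefSeq, belong to the near-identical seripauperin family, and the probes may read several members. DAN2 changed by -0.20 and -0.06 at 90 min (mean -0.13, adjusted p = 0.046), and the call was lost when any of 15 arrays was left out. DAN3 changed by 0.06. Of 22 other seripauperin genes, 1 was higher and 0 were lower at 90 min (background 20.7% and 20%), with changes between -0.11 and 0.20. Earlier, 2, 6, 6, 5, 5 and 1 of the 22 were higher at 5, 10, 15, 20, 30 and 45 min and 0 were lower, where 10.1%, 11.6%, 9.01%, 7.96%, 5.52% and 8.78% of all genes were higher.

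MOT3 had a red signal of 1271 and 1274 at 90 min in cultures A and B, against 2229 and 2248 at 0 min. Its change was 0.03, -0.02, -0.12, -0.20, -0.18, -0.43 and -0.69 in culture A and 0.01, -0.05, -0.05, -0.19, -0.31, -0.42 and -0.71 in culture B. It was called lower at every time from 20 min, with a change of -0.20 then (adjusted p = 0.012) and of -0.70 at 90 min (SE 0.037, adjusted p = 4.1e-06), or 1.63-fold. Of the 40 genes, ERG7 was called lower at 5, 10 and 15 min, before MOT3, and again at 30 and 90 min. ERG28 and ECM22 were called lower from 15 min, also before MOT3, and HEM13 and HMG1 from the same time as MOT3. NCP1 followed at 30 min, ANB1 and IDI1 at 45 min, and TIR2, MVD1 and DAN2 at 90 min. The time of a first call depends on the SE of a gene as well as on its change. The arrays of 20 min are also the first on the other side of the slide. Whether these genes differ from MOT3 in timing was not tested. Of the genes that were higher at 90 min, ERG3 was called without a gap from 20 min, ERG4 from 30 min, TIR3 from 45 min, and UPC2, ERG8, ERG2 and ERG27 at 90 min alone. ERG11 was called at 20, 30 and 90 min but not at 45 min. While the transcript of MOT3 fell, 8 of the 40 genes were called higher and 11 lower at 90 min, and 21 were not called. Of all genes, 20.7% were higher and 20% were lower at 90 min, so these counts lay close to the background.

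The midpoint of the 90 min change, by straight lines between times, was reached by MOT3 at 40.0 and 36.4 min in cultures A and B. ERG28 reached it at 29.6 and 35.5 min, HEM13 at 29.0 and 32.2 min, and NCP1 at 42.3 and 46.1 min. ECM22 was early, at 14.6 and 11.6 min, and TIR3 was late, at 52.6 and 54.6 min. The 90 min value is the last one measured and not a plateau, so these times are lower limits for genes still moving.

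**Figure D4:**
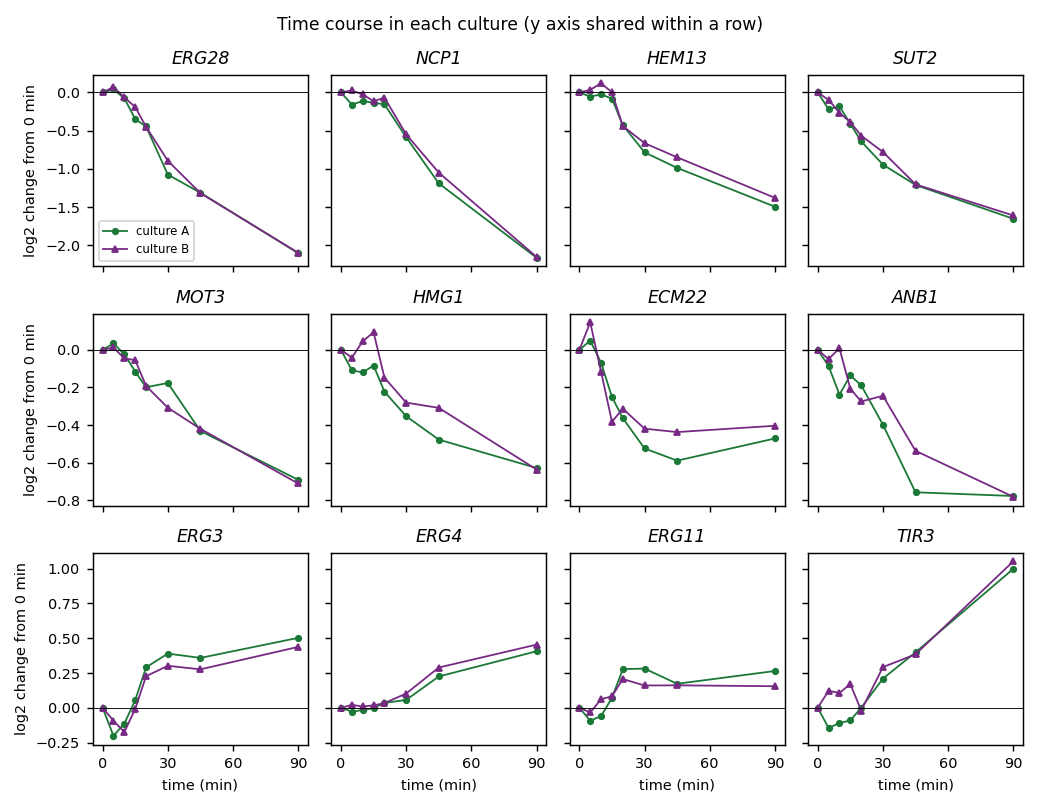
Log2 change from 0 min (y axis, shared within a row) over time (x axis, min) in cultures A (circles) and B (triangles). The top row holds ERG28, NCP1, HEM13 and SUT2, which changed by -1.44 to -2.16 at 90 min. The middle row holds MOT3, HMG1, ECM22 and ANB1, which changed by -0.44 to -0.78, and the bottom row ERG3, ERG4, ERG11 and TIR3, which were higher by 0.21 to 1.03.

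The other regulators of sterol and low-oxygen genes did not share a direction. SUT2, a zinc cluster protein related to the sterol uptake regulator Sut1, had a red signal of 388 and 285 at 90 min in cultures A and B, against 1143 and 1108 at 0 min, and fell by 1.63 (SE 0.052, adjusted p = 2.3e-07), or 3.10-fold. It was called from 10 min on. SUT1 was 0.44 higher (SE 0.079, adjusted p = 0.0029) and HAP1, a heme-responsive activator, 0.24 higher (SE 0.052, adjusted p = 0.0073). ROX1 changed by 0.08 and -0.07 in cultures A and B, and neither TUP1 nor CYC8 was called at 90 min (-0.09 and -0.05, adjusted p = 0.44 and 0.42).

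The late part of the course was compared by itself, 90 min against 10 min, to describe genes that move one way early and another way late. At 10 min the transcript of ROF1 had already risen. The medians of the stress and ribosome genes also stood furthest from 0 at that time. Of the 40 genes, 13 were higher and 10 were lower, where 26.3% and 22.3% of all genes were. The 2-fold calls were again TIR3 (1.03), NCP1 (-2.09), ERG28 (-2.03) and HEM13 (-1.48), where 0.248% of all genes were higher and 1.19% lower. ERG3 was 0.61 higher (SE 0.044, adjusted p = 1.6e-05) and ERG1 0.29 higher (SE 0.054, adjusted p = 0.0028). AUS1, TIR1 and ERG25 were higher here by 0.20, 0.12 and 0.15 (adjusted p = 0.013, 0.035 and 0.030) without a call against 0 min. Between 20 and 90 min, on one side of the slide, 6 were higher and 9 were lower, where 17.2% and 17.7% of all genes were. Called at 90 min against 0 min but not here were ECM22 (-0.10, limma, adjusted p = 0.26), IDI1 (-0.17, 0.052), ERG7 (-0.06, 0.071), UPC2 (0.17, 0.11) and ERG11 (-0.03, 0.73). Of these, ECM22 (-0.32) and ERG7 (-0.12) were called at 15 min, on the same side of the slide as 0 min.

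Before induction, the strain was compared with the reference through the ratio at 0 min. No array had its dyes swapped, and a difference between the strains cannot be told apart from a bias between the dyes. Of the 40 genes, 8 were higher and 14 were lower in the ROF1 strain, where 25.9% and 23.8% of all genes were. The 1 difference past 2-fold was TIR1 (background 0.281% higher and 0.711% lower by that rule), which had a red signal of 5436 and 5038 in the ROF1 strain in cultures A and B, against a green signal of 12311 and 11919 in the reference. Its ratio was -1.18 and -1.24 (mean -1.21, SE 0.045, adjusted p = 1.0e-07) and stayed between -1.26 and -1.03 on all 16 arrays. HEM13 was 0.38 higher (SE 0.032, adjusted p = 2.4e-05), TIR2 0.36 higher (SE 0.046, adjusted p = 3.0e-04) and MVD1 0.30 higher (SE 0.057, adjusted p = 0.0026), and each of these 3 fell later. NCP1, by contrast, started at -0.36 (SE 0.034, adjusted p = 5.8e-05) and fell further. The later falls are measured from the same 0 min arrays, so start and fall are not independent. A link between them was not tested. All 4 regulators were lower, with ratios of -0.44 for MGA2, -0.38 for UPC2, -0.13 for SPT23 and -0.12 for ECM22 (adjusted p = 3.1e-06, 6.2e-04, 0.011 and 0.045). ERG28 started at the reference level, with ratios of 0.00 and -0.06. Among other oxygen-regulated genes, CYC1, which encodes cytochrome c of air-grown cells, was 1.19 higher in the ROF1 strain (SE 0.033, adjusted p = 1.2e-08), and HAP1 was lower, at -0.27 (adjusted p = 3.5e-04).

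**Figure D5:**
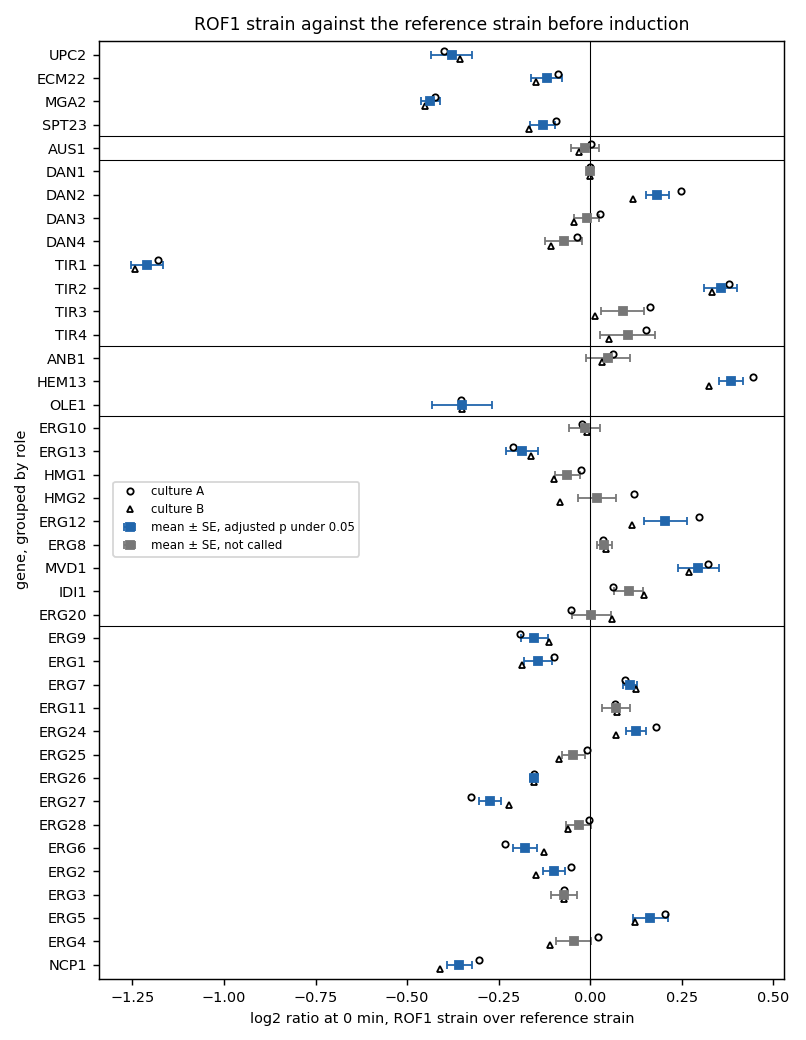
Log2 ratio at 0 min of the ROF1 strain over the reference strain (x axis) for the 40 genes (rows, grouped by role): squares are the mean of both cultures with its SE, blue where the adjusted p was under 0.05 and grey elsewhere, and open symbols are cultures A and B. TIR1 stands apart at -1.21, and all other genes lie between -0.44 and 0.38.

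Genes around the pathway were read from fixed lists. Of 16 other sterol genes, 5 were higher and 6 were lower at 90 min (background 20.7% and 20%), with a median of 0.00. None was past 2-fold (background 0.38% higher and 0.992% lower). Against the same background, 5 of 16 heme and other oxygen-regulated genes were higher and 6 were lower, with a median of 0.03. Of these 16, 1 was past 2-fold. That gene was CYC7, which encodes the minor cytochrome c: it had a red signal of 1255 and 1283 at 90 min in cultures A and B, against 628 and 652 at 0 min, and was 1.08 higher (SE 0.047, adjusted p = 1.3e-06). CYC7 was not a late gene alone, since it had already changed by 0.84 and 0.87 at 5 min, when the median of the stress genes was 0.54.

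The nearest neighbours of the genes past 2-fold were looked up in the same annotation, after their values had been seen. No neighbour within 2 places overlapped any of them. ACA1, a transcription factor gene 2 places from ERG28, was lower at 90 min, at -1.26 (SE 0.075, adjusted p = 8.0e-06), and SAH1, on the other side of ERG28, changed by -0.33 (adjusted p = 0.0074). MEI4, which lies between ERG28 and ACA1, could not be followed, since both of its colours were under the floor of 50 on all 16 arrays. MXR1, 2 places away on the side of SAH1, was 0.29 higher (adjusted p = 0.0032). NRG1, a repressor gene next to HEM13, was lower, at -0.82 (SE 0.048, adjusted p = 7.2e-06), and RPC11, on its other side, changed by -0.02. SRB2 and DOG2, on either side of NCP1, changed by -0.41 and -0.35 (adjusted p = 5.3e-05 and 0.0019). YIL012W and DOT5, on either side of TIR3, changed by 0.08 and -0.01 and were not called, while PDR11, 2 places away, was 0.24 higher (adjusted p = 0.0097).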

How the data were processed

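RNA of 16 samples was hybridised to 2-colour Agilent arrays. Per the file headers, the authors extracted spots with Feature Extraction 12.0.1.1. The deposited intensities used here are that software's processed signals, corrected by it for background and dye. The authors also deposited a table of log2 ratios, red over green, made after flooring both intensities at 50, and all its spot values lay within 0.001 of the ratios recomputed here. The table keeps 408 outlier spots that were left out here, so fits on it can differ. Apart from controls there were 12512 spots for 6256 probes, averaged per probe. Outlier spots were left out (3 to 183 per array), and 0 spots were saturated. Genes above background in red on 2 or more of the 16 arrays were tested (6046 of 6225). The brightest probe of a gene was taken, and each of the 40 genes had a single probe. The number of arrays limits the precision.

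limma 3.58.1 in R 4.3.3 was fitted to the 16 arrays, with a term for each time and a culture block (7 residual and 0.89 prior degrees of freedom). The comparison with the reference at 0 min came from a separate fit to the same arrays, with a term for each time and no culture block. P-values were adjusted by Benjamini-Hochberg over all 6046 genes of a contrast, with calls at 0.05. The fit was also run on simulated data with independent noise on each array and no effect of culture or slide side. That run cannot show how the fit behaves with correlation between the times of a culture. A culture was sampled at all times, as the titles give it, so the block follows the design. Deviations of a culture from the time mean correlated between times with a median r of 0.148 (-0.05 to 0.40, and 18 of 28 pairs over 0.1). Alternatives were other background correction, floors, filters, centring, red alone, no block, an intensity trend, and leaving out each array or culture.

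All 40 genes and 7 regulators were named. Of the other lists, a gene was named if it was called and past 2-fold at any time, and further genes were chosen after their values were seen. The 40 genes and the lists were chosen with earlier results of these data known. Names came from the array design and a RefSeq table of assembly R64. Promoter, protein and genome sequences were not analysed here.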

Additional observations from a re-analysis of the deposited data

Results flagged for a closer look

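ERG3 was called lower at 10 min and higher at 90 min, and the difference between these changes was 0.61 on the log2 scale (SE 0.044, limma, adjusted p = 1.6e-05), positive in both cultures. It was singled out for its calls in opposite directions, so this difference restates those calls and is no independent support for them. Of the 40 genes, ERG3 was the 1 gene called in both directions at different times. The share of all genes called in both directions was not counted. At 10 min the red and green levels of ERG3 changed by -0.21 and -0.08 in culture A, and by -0.04 and 0.12 in culture B. Its green reference level changed by -0.22 and -0.29 at 90 min in cultures A and B. The part of green in the difference was not tested, and the call at 10 min was not checked under other settings. Groups of 2 arrays are too small for a search for outlying samples.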

How the results depend on the processing

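Under normexp with loess, the deposited table, no floor, a floor of 200, either filter on dim probes, median centring and an intensity trend, 6 to 8 of the 40 genes were higher and 9 to 11 lower at 90 min, 3 to 5 higher and 7 to 9 lower in the mean of later times, and 19 to 26 changed over time. Without the replicate block, 6 were higher and 11 lower at 90 min, 3 and 8 in the mean of later times, and 20 changed over time. Red alone called 1 higher and 5 lower at 90 min, 0 and 2 in the mean of later times, and 7 over time. At 2-fold or more, 1 was higher and 3 were lower at 90 min, and 0 and 0 in the mean of later times. With 1 array left out, 3 to 8 were higher and 9 to 11 lower at 90 min, 1 to 5 and 3 to 9 in the mean of later times, and 16 to 21 changed over time. Leaving out the culture A array at 90 min gave 3 higher genes at that time, either 0 min array gave 4, and any 1 of the 5, 15 and 45 min arrays gave 5. In the mean of later times, leaving out the 0 min array gave 2 higher and 3 lower genes for culture A, and 1 higher gene for culture B. Apart from the 2-fold rule, the share of all genes called was not counted under these settings. The counts therefore describe the 40 genes without a background, and a loss of calls may be shared by all genes. Each culture alone gives a change and no test. The planned search for promoter motifs was not run.

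NCP1, ERG28, HEM13, HMG1 and TIR3 were called at 90 min under each of these settings. In red alone, ERG11 was -0.27 at 90 min and ERG26 -0.029 in the mean of later times, neither called, and ECM22, TIR2, MVD1, IDI1, ERG2, ERG3, ERG4, ERG7, ERG8, ERG27, DAN2 and UPC2 also lost their call at 90 min. ANB1 lost its call with a floor of 200, which lies above its signal. The calls of ERG2, ERG8, DAN2 and UPC2 at 90 min were lost when any 1 of 9, 12, 15 and 10 arrays was left out. ERG2 and UPC2 also lost theirs without the replicate block, and ERG7 with normexp, the deposited table, no floor and the strict filter. ERG7 and ERG11 lost theirs without either 0 min array or the 90 min array of culture A, and ERG27 without the 0 or 90 min array of culture A. Other causes were not tested.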

Other observations

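These genes were chosen after their values were seen. Genes of the list of other sterol genes were read beside NCP1. Of that list of 16, 5 were higher and 6 were lower at 90 min (background 20.7% and 20%). The 5 higher genes were PDR11, ARE1, YEH2, TGL1 and NSG1, and the genes named below are not a fair sample of the list. DAP1, named below as lower, was called higher at 1 earlier time. The P450 genes ERG11 and ERG5 themselves changed by 0.21 and -0.07. DAP1, which encodes a heme-binding partner of Erg11, was lower at 90 min, at -0.47 (SE 0.042, limma, adjusted p = 7.3e-05), and ERG29, a gene tied to the C-4 methyl oxidase step, at -0.59 (SE 0.027, adjusted p = 1.8e-06). CYB5, which encodes cytochrome b5, an alternative electron donor, changed by -0.04 (adjusted p = 0.69). YEH1, a steryl ester hydrolase gene, was lower, at -0.88 (SE 0.075, adjusted p = 5.3e-05).

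Heme and oxygen-regulated genes moved both ways at 90 min. YHB1, the flavohemoglobin gene, changed by -0.70 (SE 0.055, adjusted p = 3.4e-05), AAC3 by -0.47 (adjusted p = 1.5e-04) and HEM3 by -0.39 (adjusted p = 3.7e-04). FET4, a low-affinity iron transporter gene with a dim signal, was 0.85 higher (SE 0.082, adjusted p = 1.1e-04), and HEM14 was 0.40 higher (adjusted p = 0.0017). COX5A changed by -0.44 and its paralog COX5B by 0.23 (adjusted p = 1.7e-05 and 0.011).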
